A study of Mus musculus with 12 samples.

Results

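The genes described here are the G1 cyclins and cyclin-dependent kinase (CDK) inhibitors of mouse bone marrow-derived dendritic cells (BMDCs), together with the retinoblastoma gene. The members are the D-type cyclins Ccnd1, Ccnd2 and Ccnd3, the E-type cyclins Ccne1 and Ccne2, the inhibitors Cdkn1a, Cdkn1b, Cdkn2c and Cdkn2d, and Rb1. They were taken by gene symbol from the gene tables of all 12 RNA-seq libraries. Each of the 10 symbols was found once among the 55335 genes listed, and each was high enough to be tested among the 14008 genes kept after a filter on low counts.

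The study compared BMDCs with and without the architectural protein CTCF, at rest and after lipopolysaccharide (LPS), the bacterial ligand of Toll-like receptor 4. Bone marrow of C57BL/6 mice, male and female and aged 8 to 12 weeks, was cultured with GM-CSF for 6 days. The mice carried a tamoxifen-activated Cre (CreER) at the Rosa26 locus, which is not restricted to one cell type, either alone (WT and WTLPS) or with loxP-flanked Ctcf alleles (KO and KOLPS). To delete Ctcf, 4-hydroxytamoxifen was given on the first day of culture. The sources do not state plainly whether the WT cultures also received it, so that any effect of the drug and that of the deletion cannot be told apart if they did not. Floating cells were harvested and CD11c+ cells selected on magnetic beads before LPS was given, a step meant to remove cells without CD11c. WTLPS and KOLPS cells had LPS at 100 ng/ml for 3 hours. WT and KO cells had none. The 4 groups have 3 libraries each, described in the study's methods as biological replicates.

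Cells commit to DNA replication in late G1. D-type cyclins with CDK4 or CDK6 begin to phosphorylate the retinoblastoma protein, E-type cyclins with CDK2 complete it, and E2F factors held by that protein are released. The INK4 inhibitors, among them p18 (Cdkn2c) and p19 (Cdkn2d), bind CDK4 and CDK6, whereas the CIP/KIP inhibitors p21 (Cdkn1a) and p27 (Cdkn1b) act on cyclin-bound CDKs, most strongly CDK2. In cultures grown from bone marrow with GM-CSF, proliferating precursors give rise to dendritic cells that leave the cycle as they mature.

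All members have known positions in mm10 (GENCODE annotation). Ccnd1 (ENSMUSG00000070348.5) lies at chr7:144929931-144939925 on the minus strand and Ccne1 (ENSMUSG00000002068.16) on the same chromosome at chr7:38097984-38107534, also on the minus strand. Ccnd2 (ENSMUSG00000000184.12) lies at chr6:127125162-127152193 on the minus strand, and Cdkn1b (ENSMUSG00000003031.14) at chr6:134920401-134925513 on the plus strand. Cdkn1a (ENSMUSG00000023067.14) and Ccnd3 (ENSMUSG00000034165.16) are on the plus strand at chr17:29090976-29100727 and chr17:47505051-47599691. Ccne2 (ENSMUSG00000028212.16) is on the plus strand at chr4:11191351-11204779, and Cdkn2c (ENSMUSG00000028551.14) on the minus strand at chr4:109660876-109667189. Cdkn2d (ENSMUSG00000096472.2) lies at chr9:21288410-21291407 and Rb1 (ENSMUSG00000022105.6) at chr14:73183673-73325822, both on the minus strand.

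Promoter sequence from RefSeq (GRCm38.p6) was at hand for 6 of the members, with 9 start sites between them. Relative to the median gene, Ccne1 and Cdkn1b rose with LPS in WT cells and Cdkn2d fell, and those rises depended on the scale, as given below. These genes have 1 start site each and are printed as the 150 bases upstream of the RefSeq start (Ccne1 chr7:38107491-38107640, minus strand; Cdkn1b chr6:134920251-134920400, plus strand; Cdkn2d chr9:21291210-21291359, minus strand). The GENCODE gene of Cdkn2d begins further upstream, at 21291407, so its printed stretch lies wholly inside that gene. For Ccne1 the GENCODE gene begins at 38107534, so part of its stretch lies inside the gene. Capitals mark a GC box (GGGCGG) or a CCAAT box (CCAAT) on either strand.
Ccne1: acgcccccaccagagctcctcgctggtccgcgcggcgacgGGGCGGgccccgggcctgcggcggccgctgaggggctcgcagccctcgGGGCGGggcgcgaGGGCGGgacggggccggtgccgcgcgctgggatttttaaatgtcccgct
Cdkn1b: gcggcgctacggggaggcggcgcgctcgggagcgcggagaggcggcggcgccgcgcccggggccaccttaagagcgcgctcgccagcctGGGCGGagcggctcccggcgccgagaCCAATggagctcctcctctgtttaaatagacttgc
Cdkn2d: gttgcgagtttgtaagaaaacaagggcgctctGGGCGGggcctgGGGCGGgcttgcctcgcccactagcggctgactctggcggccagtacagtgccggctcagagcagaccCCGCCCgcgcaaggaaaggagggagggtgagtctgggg
Within 300 bases (250 before the start and 50 after it), the Ccne1 window held 4 GC boxes, that of Cdkn2d 5 and that of Cdkn1b 1. Of 32851 mouse promoter windows of this length, 35.7% held at least 1 GC box and 37.4% at least 1 CCAAT box. Letters of an E2F site (TTTCCCGC, TTTGGCGC or TTTCGCGC, in 1.84% of windows) or a STAT site (TTCNNNGAA, in 8.30%) were in none of the 9 windows on either strand. Ccnd1, Ccnd2, Ccne2 and Rb1 have no entry printed here.

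Library totals ran from 12769773 to 16586334 estimated counts. Levels are given as normalized counts, the estimated counts scaled to a common effective library size by the trimmed mean of M-values (TMM), or, where genes are compared with each other, as TPM, RSEM's transcript abundance, which takes account of transcript length and sums to the same total in every library. Ctcf itself had normalized counts of 1051, 987 and 975 in WT and 570, 562 and 516 in KO, a difference of -0.87 on the log2 scale (SE 0.08, adjusted p = 3.9e-07, by the quasi-likelihood test of edgeR, adjusted after Benjamini and Hochberg over all genes, used throughout with a threshold of 0.05). It had 886, 817 and 745 in WTLPS and 563, 530 and 526 in KOLPS (log2 difference -0.59, SE 0.08, adjusted p = 2.4e-05). Ctcf was thus lower under both KO labels, with counts remaining in every depleted library. These are RNA counts and do not give the amount of CTCF protein. The study reported depletion of the protein as well, with its binding lost or strongly reduced at every site. Dendritic cell markers were present in all groups but did not move together. Mean TPM in WT, WTLPS, KO and KOLPS was 366, 224, 606 and 251 for Itgax, and 3519, 3564, 1484 and 2647 for H2-Aa. For Cd86 it was 71.0, 290, 62.2 and 392, while Flt3 was low at 0.843 to 3.65. Biological coefficients of variation were 4.93% in WT and 2.62% in KO but 13.7% in WTLPS and 14.4% in KOLPS, so that differences between the LPS groups were measured less precisely. The fit over all 12 libraries shares its estimate of spread among the 4 groups, so the SEs and p-values given here do not carry this difference. With only the compared groups fitted, 4475 genes passed in KOLPS against WTLPS instead of 6257, and 8272 in KO against WT instead of 6241. By a chi-square of their counts over genes, per degree of freedom, WTLPS replicate 2 stood apart (77.7 and 72.5 from the other two, which gave 28.3 against each other), as did KOLPS replicate 2 (27.2 and 28.5, against 8.07). Pairs gave 3.14 to 4.45 in WT and 1.66 to 1.86 in KO. Without either of the LPS libraries no member's call changed.

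**Figure D1:**
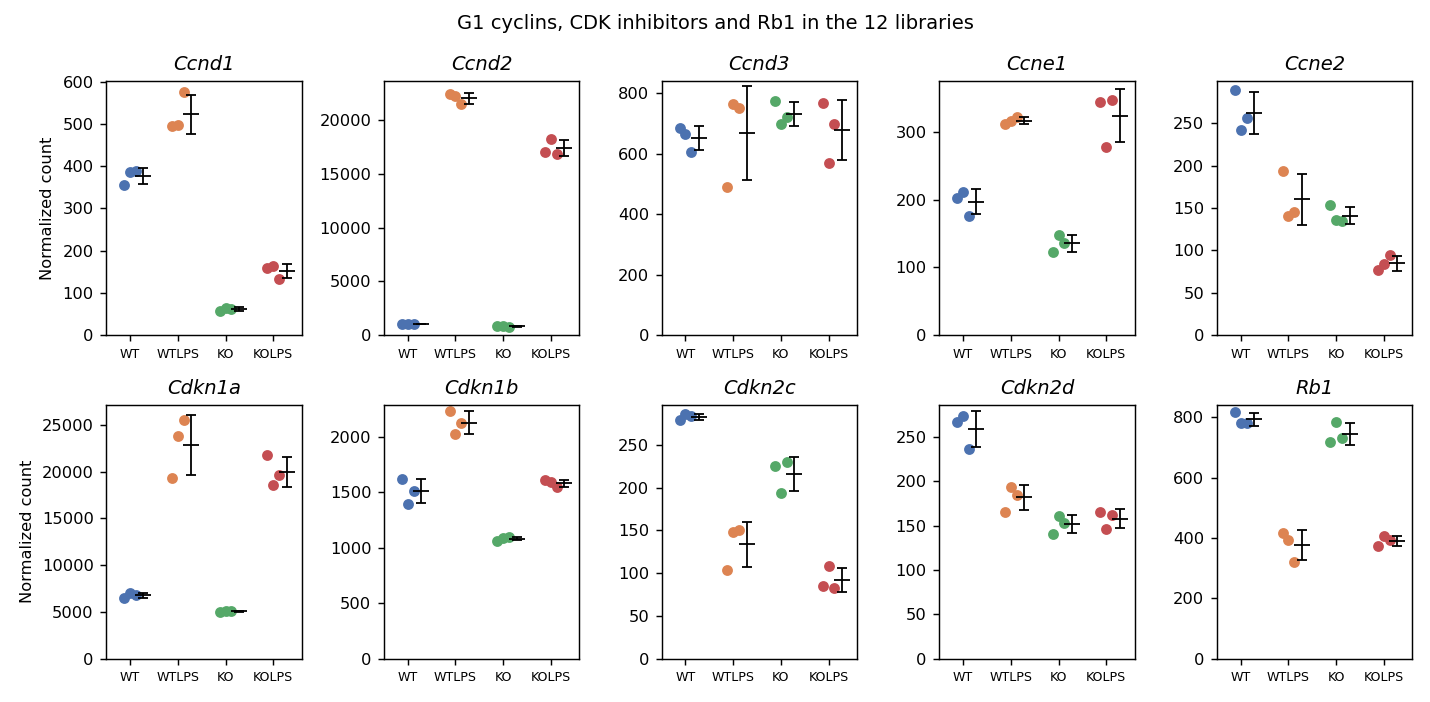
Normalized counts (linear axis from 0, in each panel) of the 10 genes in every library, by group; points are libraries and the black marks give the mean ± SD (n = 3). Ccnd2 lies between 771 and 1017 without LPS and between 16877 and 22450 with it, whereas Ccnd1 lies at or below 164 in all 6 KO and KOLPS libraries and at or above 355 in all 6 WT and WTLPS libraries.

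The first question is what LPS did in WT cells. After 3 hours, 5 of the 10 genes were higher (Ccnd2, Cdkn1a, Ccne1, Cdkn1b and Ccnd1), 4 were lower (Rb1, Cdkn2c, Ccne2 and Cdkn2d), and Ccnd3 did not pass the test. Across all genes tested, 60.2% passed, 30.0% higher and 30.2% lower. Median log2 fold change was 0.26 over the members and -0.02 over all genes. With the study's fold cutoff of 2, 4 members passed (Ccnd2, Cdkn1a, Rb1 and Cdkn2c), and 22.6% of all genes. In TPM this comparison looks different, since median TPM over genes was 12.5 to 12.9 in WT and 8.28 to 8.95 in WTLPS, and the median gene then fell by 0.44 on the log2 scale. In log2(TPM + 1), 9254 of 13435 genes passed, and 18% of those were higher, against 50% in normalized counts. The members gave 2 higher (Ccnd2 and Cdkn1a) and 5 lower on that scale. Changes with LPS below are therefore relative to the median gene, and a gene whose direction or call turns in TPM is named with its value. Marker lists of other cells moved with LPS as well: in normalized counts, 6 of 7 tested granulocyte genes were higher in WTLPS, and of 6 macrophage genes 1 was higher and 2 were lower. In log2(TPM + 1) these were 2 higher granulocyte genes, and 1 higher and 4 lower macrophage genes. Summed TPM of the macrophage list was 508 to 627 in WTLPS, against 914 to 987 in WT. Their part in the values of the members was not tested.

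Ccnd2, which encodes cyclin D2, had the largest change of the 10 genes with LPS. In WT its normalized counts were 1010, 1005 and 1017, and in WTLPS they were 22450, 22210 and 21486. The groups were far apart, and the libraries of each were close to each other. Means were 1011 ± 6.31 and 22049 ± 502 (SD, n = 3), a 21.8-fold rise (log2 4.45, SE 0.07, adjusted p = 6.8e-15), the 126th highest fold change of the 14008 genes. In KO it was 828, 843 and 771, and in KOLPS 17054, 18222 and 16877, a rise of 21.4-fold (log2 4.42, SE 0.07, adjusted p = 4.5e-15). Its response to LPS differed between genotypes by -0.03 (SE 0.09, adjusted p = 0.86), where the value is the log2 response in KO minus that in WT (the interaction). The antisense genes 9330179D12Rik and Gm43126 overlap Ccnd2, and how the counting used strand is not stated in the sources used here. 9330179D12Rik averaged 5.55 ± 2.21 normalized counts in WT and 26.4 ± 3.45 in WTLPS, and Gm43126 was listed at 55.5 or less in every library.

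The level of Ccnd2 also differed with CTCF, by far less. It was lower in KO than in WT (log2 -0.31, SE 0.06, adjusted p = 0.0012) and lower in KOLPS than in WTLPS (log2 -0.34, SE 0.06, adjusted p = 0.0004). In both comparisons the libraries of the genotypes did not overlap.

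Ccnd1, which encodes cyclin D1, had the largest change of the 10 genes with CTCF depletion. In WT its normalized counts were 355, 387 and 388, and in KO 56.5, 65.3 and 63. The groups did not overlap, and every KO library was far below the lowest WT library. Means were 376 ± 18.9 and 61.6 ± 4.54, 6.11-fold lower in KO (log2 -2.61, SE 0.11, adjusted p = 2.3e-10). That is the 195th lowest fold change of all genes tested, and leaving out any 1 library gave -2.69 to -2.55. The KO value rests on 63.1 to 68.5 estimated counts per library. The neighbouring gene LTO1, which overlaps Ccnd1 on the other strand, averaged 334 ± 12.9 in WT and 398 ± 20.8 in KO.

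With LPS, Ccnd1 reached 496, 497 and 576 in WTLPS and 160, 164 and 132 in KOLPS. Each LPS library of a genotype was above each resting library of it, and each KOLPS library was below each WT library, so LPS did not bring the depleted cells to the resting WT level. KOLPS was 3.44-fold below WTLPS (log2 -1.78, SE 0.10, adjusted p = 4.8e-09). The rise with LPS was 2.47-fold in KO cells (SE 0.12 on the log2 scale, adjusted p = 3.3e-07). In WT cells it was 1.39-fold (log2 0.48, SE 0.09, adjusted p = 0.00038) and turned in log2(TPM + 1), where the value was -0.10 (adjusted p = 0.40, limma). The LPS response was larger in KO than in WT by 0.83 on the log2 scale (SE 0.15, adjusted p = 0.002).

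Ccnd3, which encodes cyclin D3, passed no comparison. Its normalized counts were 684, 665 and 606 in WT, 490, 764 and 753 in WTLPS, 774, 697 and 723 in KO, and 767, 570 and 698 in KOLPS. The WTLPS libraries were spread the widest, with 1 library at 490, and overlapped those of WT and KOLPS. KO libraries lay above WT libraries without overlap, but the difference was 0.17 (SE 0.14, adjusted p = 0.37), and it passed when only those 2 groups were fitted (0.17, adjusted p = 0.015). With LPS the log2 differences were 0.04 in WT (SE 0.14, adjusted p = 0.81) and -0.11 in KO (adjusted p = 0.52). In log2(TPM + 1) they were -0.52 (adjusted p = 0.013, limma) and -0.62 (adjusted p = 0.0046, limma), so in WT cells the direction turned with the scale.

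Set side by side in TPM, the D-type cyclins changed places. In WT, Ccnd3 was the most abundant at 43.3 ± 4.32 TPM, ahead of Ccnd2 at 16.6 ± 0.162 and Ccnd1 at 10.7 ± 0.285. In WTLPS, Ccnd2 led at 243 ± 10.7 TPM, and Ccnd3 had 30.4 ± 7.02. Ccnd2 made up 23.5 ± 1.22% of the summed D-cyclin TPM in WT and 85.7 ± 2.64% in WTLPS, and 21.6 ± 0.991% in KO and 85.7 ± 1.59% in KOLPS. These shares are ratios within a library and do not depend on the scaling between libraries. The Ccnd1 share was 15.2 ± 1.25% in WT, 3.51 ± 0.328% in WTLPS, 2.7 ± 0.32% in KO and 1.29 ± 0.126% in KOLPS. The sum of the D cyclins was 70.6 ± 4.14 TPM in WT, 283 ± 7.6 in WTLPS, 58.5 ± 3.66 in KO and 219 ± 8.34 in KOLPS.

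**Figure D2:**
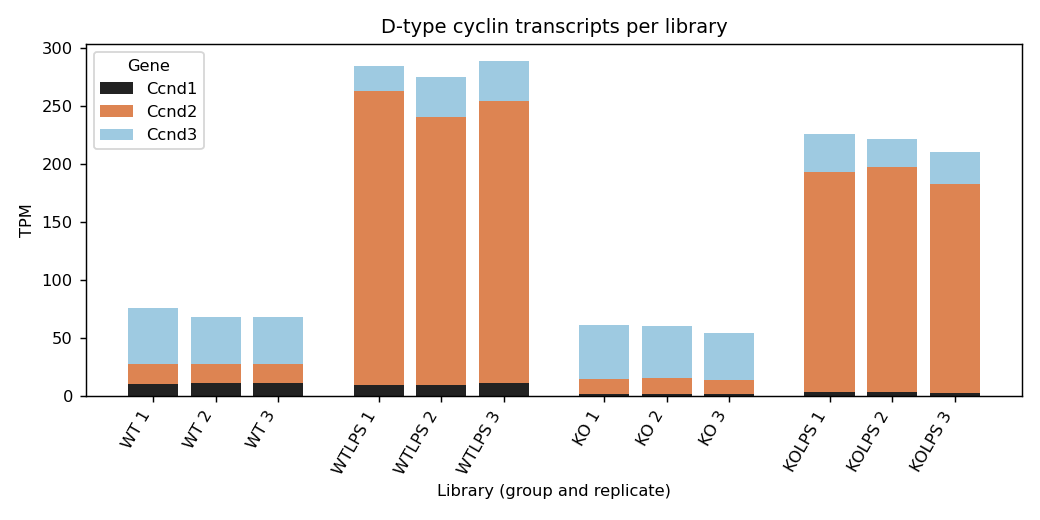
TPM (linear axis from 0) of Ccnd1, Ccnd2 and Ccnd3 stacked for each of the 12 libraries, named by group and replicate. The stack is 54.3 to 75.4 TPM high without LPS, most of it Ccnd3, and 210 to 289 TPM high with LPS, most of it Ccnd2.

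The E-type cyclins, the partners of CDK2, moved in opposite directions with LPS. Ccne1 (cyclin E1) had normalized counts of 203, 212 and 176 in WT and 312, 316 and 322 in WTLPS. The groups did not overlap, and the rise was 0.68 (log2, SE 0.11, adjusted p = 6.3e-05), which did not pass in log2(TPM + 1) (0.19, adjusted p = 0.11, limma). In KO it was 123, 148 and 136, below every WT library (log2 -0.54, SE 0.11, adjusted p = 0.0013). In KOLPS it was 345, 278 and 348, which overlapped WTLPS and did not pass against it (log2 0.03, SE 0.10, adjusted p = 0.82). The rise with LPS was thus 2.39-fold in KO cells (log2 1.26, SE 0.11, adjusted p = 1.6e-07). The responses differed between genotypes by 0.57 (SE 0.15, adjusted p = 0.019), a call lost without 1 KO library (replicate 1; 0.51, adjusted p = 0.061) and in TPM scaled to a common median (0.45, adjusted p = 0.054, limma).

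Ccne2 (cyclin E2) had 289, 242 and 256 normalized counts in WT and 194, 140 and 145 in WTLPS, with no overlap (log2 -0.73, SE 0.13, adjusted p = 0.00021). KO libraries had 153, 136 and 134, all below WT, 1.86-fold lower (log2 -0.89, SE 0.13, adjusted p = 4.9e-05). KOLPS libraries had 76.3, 84.2 and 94, the lowest of the 4 groups, below WTLPS (log2 -0.90, SE 0.15, adjusted p = 0.00017) and below KO (log2 -0.73, SE 0.14, adjusted p = 0.00044). The interaction was -0.01 (SE 0.18, adjusted p = 0.99). As a share of the summed E-cyclin TPM, Ccne1 was 51.8 ± 3.08% in WT, 73.6 ± 4.6% in WTLPS, 59.2 ± 3.55% in KO and 85.0 ± 1.22% in KOLPS. Ccne2 overlaps Ints8 on the opposite strand.

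Among the CIP/KIP inhibitors, Cdkn1a, which encodes p21 and is a known p53 target, was the most abundant of the 10 genes in every group. Its normalized counts were 6520, 7010 and 6799 in WT and 19337, 23798 and 25542 in WTLPS. All LPS libraries were well above the resting ones, a rise of 3.38-fold (log2 1.76, SE 0.10, adjusted p = 1e-09). KO libraries, at 4992, 5082 and 5124, were below all WT libraries (log2 -0.42, SE 0.09, adjusted p = 0.0022). KOLPS libraries, at 21732, 18521 and 19683, overlapped WTLPS and did not pass against it (log2 -0.20, SE 0.09, adjusted p = 0.1). Without the lowest WTLPS library (replicate 1) the value was -0.30 (adjusted p = 0.0038). In KO cells the rise with LPS was 3.94-fold (log2 1.98, SE 0.10, adjusted p = 2.7e-10), and the interaction was 0.22 (SE 0.13, adjusted p = 0.28). By TPM, Cdkn1a ranked 318th among all genes in WT and 184th in WTLPS.

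Cdkn1b, which encodes p27 and is a known FoxO target, had normalized counts of 1617, 1399 and 1517 in WT, 2231, 2024 and 2129 in WTLPS, 1066, 1087 and 1094 in KO, and 1612, 1590 and 1548 in KOLPS. In normalized counts the groups differed without overlap in all 4 comparisons, while the KOLPS libraries lay within the range of the WT ones. In TPM the KOLPS libraries (39.2 to 43.3) were all below the WT ones (51.4 to 62.4). LPS raised it by 0.49 in WT (log2, SE 0.07, adjusted p = 2.7e-05) and 0.55 in KO (SE 0.07, adjusted p = 8.5e-06), and neither passed in log2(TPM + 1) (0.02, adjusted p = 0.89, and 0.17, adjusted p = 0.13, limma). CTCF depletion lowered it by similar amounts at rest (log2 -0.48, SE 0.07, adjusted p = 6.3e-05) and with LPS (log2 -0.43, SE 0.07, adjusted p = 0.00018), with an interaction of 0.06 (SE 0.10, adjusted p = 0.76).

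Both INK4 inhibitors among the members fell with LPS in WT cells. Cdkn2c (p18) had 279, 286 and 284 normalized counts in WT and 104, 148 and 150 in WTLPS (log2 -1.07, SE 0.13, adjusted p = 7.4e-06). In KO it had 225, 194 and 230, and in KOLPS 85, 109 and 83.3, again lower with LPS (log2 -1.23, SE 0.14, adjusted p = 2.7e-06). KO was below WT without overlap (log2 -0.39, SE 0.12, adjusted p = 0.02), a call lost without 1 KO library (replicate 2; -0.32, adjusted p = 0.096) and in TPM scaled to a common median (-0.45, adjusted p = 0.078, limma). KOLPS was below WTLPS (log2 -0.55, SE 0.15, adjusted p = 0.0081), but 1 library of each group overlapped, and the call was lost in log2(TPM + 1) (-0.39, adjusted p = 0.10, limma) and with those 2 groups fitted alone (-0.52, adjusted p = 0.062).

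Cdkn2d (p19) was the only member to fall with LPS in WT cells and not pass in KO cells, and the difference was itself tested. It had 267, 274 and 236 normalized counts in WT and 166, 194 and 185 in WTLPS (log2 -0.51, SE 0.10, adjusted p = 0.00045). In KO it had 141, 161 and 153, and in KOLPS 166, 146 and 162, so the resting KO libraries were already below all WTLPS libraries. KO was below WT (log2 -0.77, SE 0.10, adjusted p = 1.7e-05). KOLPS against KO gave 0.06 (SE 0.10, adjusted p = 0.62), which turned and passed in log2(TPM + 1) (-0.36, adjusted p = 0.0053, limma), and KOLPS against WTLPS gave -0.20 (SE 0.10, adjusted p = 0.13). The interaction was 0.57 (SE 0.14, adjusted p = 0.014) and passed in all leave-one-out fits (adjusted p 0.0061 to 0.045).

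Rb1, whose product the cyclin-CDK complexes phosphorylate, had 817, 782 and 780 normalized counts in WT and 417, 395 and 322 in WTLPS. It fell without overlap (log2 -1.07, SE 0.09, adjusted p = 8.6e-08), as it did in KO cells, from 717, 784 and 733 to 374, 406 and 392 (log2 -0.93, SE 0.09, adjusted p = 3.1e-07). CTCF depletion gave -0.09 at rest (SE 0.08, adjusted p = 0.41) and 0.05 with LPS (SE 0.09, adjusted p = 0.69). Lpar6 and Rcbtb2 overlap Rb1 on the opposite strand and were also lower with LPS, Lpar6 at 1115 ± 41.5 in WT and 110 ± 11.4 in WTLPS and Rcbtb2 at 815 ± 50.3 and 396 ± 31.9, without overlap of their libraries. Reads of Rb1 and of these genes cannot be told apart where they overlap if strand was not used in counting.

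**Figure D3:**
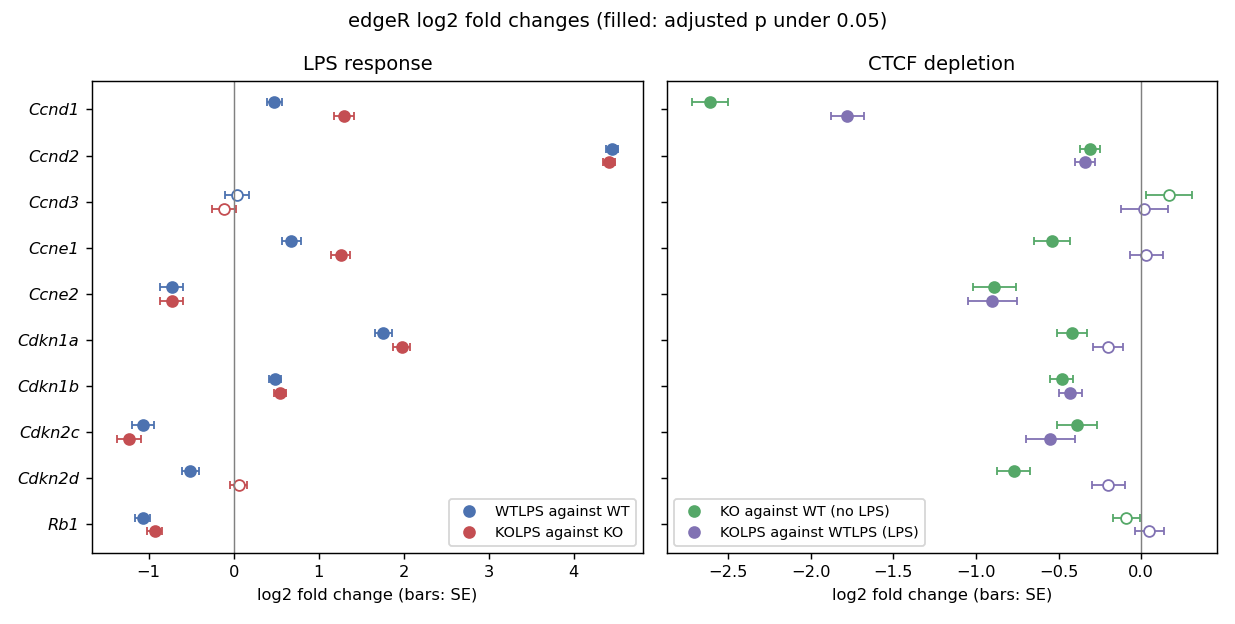
log2 fold changes of the 10 genes (x axis) with their SE (bars), from edgeR; filled points passed an adjusted p of 0.05 and open points did not. Left, LPS response in WT cells (WTLPS against WT) and in KO cells (KOLPS against KO); right, the CTCF effect at rest (KO against WT) and with LPS (KOLPS against WTLPS). Ccnd2 stands at 4.45 and 4.42 on the left, and Ccnd1 at -2.61 and -1.78 on the right.

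The second question is what CTCF depletion did to these genes at rest. In KO against WT, 8 of the 10 genes were lower and 0 were higher (0 also at an unadjusted p of 0.05, by edgeR, and 0 by DESeq2 and by limma on TPM, although fitting only these 2 groups called Ccnd3 higher). Over all genes, 44.6% passed, 22.4% lower and 22.2% higher. The members' median log2 fold change was -0.45, against -0.01 over all genes. The genes not called were Ccnd3 and Rb1. With the study's fold cutoff of 1.3, 7 of the 10 members passed, and 34.5% of all genes. KO and WT libraries did not overlap for 9 of the 10 members, as for 64.2% of all genes.

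With LPS, in KOLPS against WTLPS, 5 of the 10 genes were lower (Ccnd1, Ccnd2, Ccne2, Cdkn1b and Cdkn2c) and 0 were higher (0 also at an unadjusted p of 0.05 and by DESeq2 and limma), against 44.7% of all genes that passed, 23.3% lower and 21.4% higher. The members' median was -0.27 and that of all genes -0.03. Groups did not overlap for 5 of the 10 members and for 46.3% of all genes. With a fold cutoff of 1.5, 2 members passed (Ccnd1 and Ccne2), and 25.0% of all genes.

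Marker lists of other cells moved with the genotype. Of 7 tested genes of granulocytes and their precursors, 6 were lower in KO against WT (median log2 -1.68), and 5 were lower in KOLPS against WTLPS (median -1.03). Their summed TPM was 377 to 400 in WT, 194 to 226 in KO, 350 to 445 in WTLPS and 290 to 334 in KOLPS. Between WT and KO, mean TPM was 244 and 168 for S100a8, 128 and 37.5 for S100a9, 7.27 and 0.333 for Ngp, 3.11 and 0.203 for Camp, and 0.33 and 0.0367 for Elane, and Ly6g, Elane, Ctsg and Camp were at 3 counts or fewer in every KO library. Of 4 tested genes of stem and progenitor cells, 2 were higher and 1 lower in KO against WT and 3 higher in KOLPS against WTLPS (median 0.89), at a mean summed TPM of 6.0 ± 0.236 in WT, 7.19 ± 0.851 in KO, 4.23 ± 0.89 in WTLPS and 10.8 ± 2.04 in KOLPS. Of 6 macrophage genes, 2 were higher and 3 lower in KO against WT (median -0.44), and 0 were higher and 2 lower in KOLPS against WTLPS (median -0.15). Their summed TPM was 914 to 987 in WT, 966 to 1014 in KO, 508 to 627 in WTLPS and 438 to 542 in KOLPS. Of 9 dendritic cell markers, 2 were higher and 3 lower in KO (summed TPM 7899 to 8234, against 11091 to 11639 in WT), and 2 were higher and 4 lower in KOLPS against WTLPS (11057 to 15614, against 10952 to 14618). In bulk samples, fewer cells of a type and less RNA per cell cannot be told apart. S-, G2- and M-phase genes were lower too, as described below. The part of all these genes in the values of the members was not tested.

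In KO cells, LPS (KOLPS against KO) raised 5 of the 10 genes (Ccnd2, Cdkn1a, Ccnd1, Ccne1 and Cdkn1b) and lowered 3 (Cdkn2c, Rb1 and Ccne2), while 67.5% of all genes passed, 33.6% higher and 33.9% lower. Granulocyte genes were higher for 6 of 7 and stem and progenitor genes for 3 of 4, and of 6 macrophage genes 2 were higher and 2 lower. The part of these marker genes in the values of the members was not tested. The members' median was 0.31 and that of all genes -0.02. With a fold cutoff of 2, taken over here from the comparison in WT cells, 5 members passed and 28.1% of all genes. In log2(TPM + 1), the median gene fell by 0.38, and 9180 of 13435 genes passed, 24% of them higher. The members gave 4 higher and 5 lower on that scale, with Ccnd3 and Cdkn2d added to the lower ones and Cdkn1b not passing. KOLPS and WTLPS are compared with KO and WT respectively, and each of the 4 comparisons shares a group with another, so they are not independent of each other.

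The third question is whether the response to LPS depended on CTCF. The interaction passed for 3 of the 10 genes, Ccnd1 (0.83), Ccne1 (0.57) and Cdkn2d (0.57), in each case with a more positive response in KO. Over all genes 17.4% passed, 8.70% with a more positive and 8.75% with a more negative response. For the other members the interaction lay between -0.17 and 0.22. A p above the threshold does not show that their responses were equal.

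**Figure D4:**
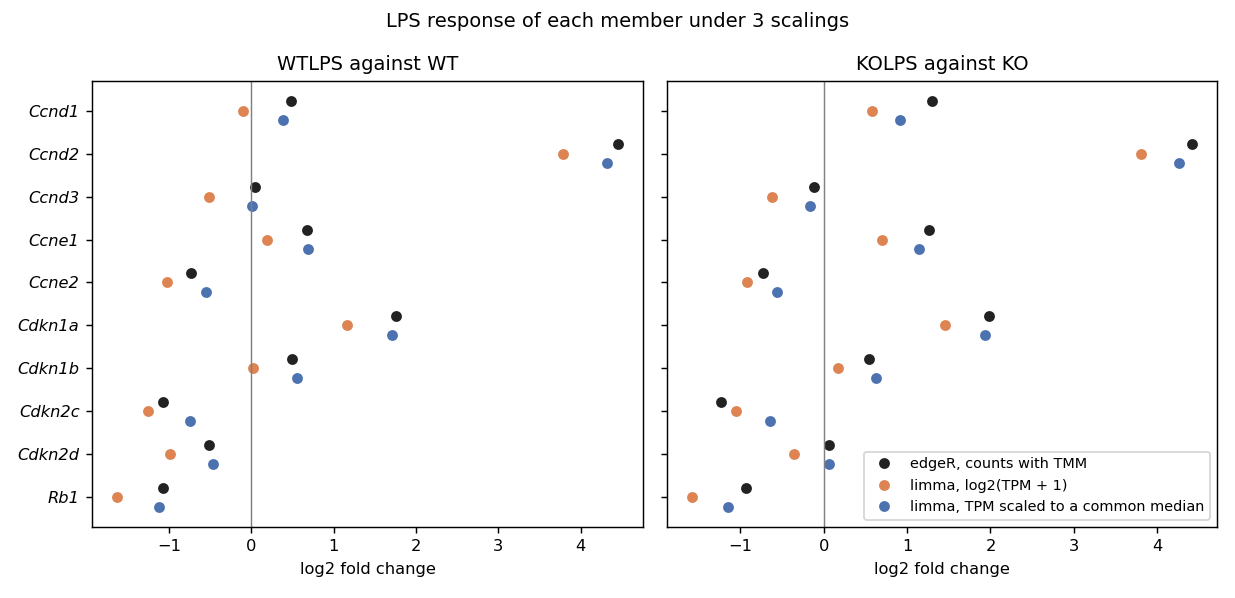
log2 fold change with LPS of each of the 10 genes (x axis) in WT cells (left) and KO cells (right), under edgeR on counts with TMM, limma on log2(TPM + 1) and limma on TPM scaled to a common median. In WT cells, limma on unscaled TPM put Ccnd1 at -0.10 and Ccnd3 at -0.52, against 0.48 and 0.04 by edgeR, and Ccnd2 lay above 3.7 under all 3.

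Inhibitors and D cyclins can be set against each other as sums in TPM. The 4 inhibitors summed to 504 ± 8.41 TPM in WT, 993 ± 132 in WTLPS, 352 ± 7.82 in KO and 858 ± 84.7 in KOLPS. Cdkn1a supplied 80.7 ± 1.2% of that in WT and 92.4 ± 1.01% in WTLPS. The ratio of the sums, inhibitors to D cyclins, was 7.15 ± 0.402 in WT and 3.51 ± 0.43 in WTLPS, and 6.04 ± 0.514 in KO and 3.91 ± 0.327 in KOLPS. The ratio libraries with LPS (3.07 to 4.22) were all below those without (5.62 to 7.47). Messenger RNA sums say nothing of the amount of protein or of its activity.

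In WT, the order by TPM was Cdkn1a (407 ± 8.91), Cdkn1b (56.0 ± 5.72), Ccnd3, Rb1 (25.3 ± 3.02), Cdkn2d (23.4 ± 2.3), Cdkn2c (17.8 ± 0.195), Ccnd2, Ccne1 (11.6 ± 1.26), Ccne2 (10.8 ± 0.762) and Ccnd1, in which the neighbours Rb1 and Cdkn2d, Ccne1 and Ccne2, and Ccne2 and Ccnd1 overlapped between libraries. In KO, Ccnd1 was the lowest at 1.57 ± 0.132 TPM, below every other member without overlap. In WTLPS and KOLPS, Ccne2 had the lowest mean (4.82 ± 1.02 and 2.31 ± 0.357), overlapping its neighbour in the order, Cdkn2c in WTLPS and Ccnd1 in KOLPS.

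RSEM also gives a transcript length for each gene, weighted by the estimated amounts of its isoforms. For Cdkn2c, which has annotated transcripts of 1106 and 2471 bases, it was 1750, 1757 and 1742 bases in WT and 1944, 1956 and 1812 in KO, and with LPS 1689, 1469 and 1377 in WTLPS and 1489, 1436 and 1327 in KOLPS. The LPS libraries were shorter than every resting library, so the longer isoform made up less of the estimated mixture. For Cdkn1a the lengths were 1822 ± 7.12 (WT), 1883 ± 2.05 (WTLPS), 1785 ± 11.9 (KO) and 1854 ± 10.3 (KOLPS), with no overlap between groups in any comparison. With 3 libraries against 3, an exact permutation test cannot go below p = 0.1 (two-sided), and no test was made on lengths.

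The wider pathway was followed in a list of 40 genes of G1 to S control, of which 36 were tested. With LPS in WT cells 9 were higher and 20 lower (median log2 -0.35), and in KO cells 9 were higher and 17 lower (median -0.17). In log2(TPM + 1) these were 3 higher and 27 lower of 38, and 5 higher and 28 lower of 38. E2f2, an activating E2F, fell from 637 ± 19.9 to 113 ± 12.3 normalized counts in WT (log2 -2.48, SE 0.09, adjusted p = 7.7e-12). Fbxo31, an F-box protein of cyclin D1 turnover, and Cdc25b, a CDK-activating phosphatase, fell by 2.01 and 1.56 on the log2 scale. Cdk6, the D-cyclin partner, rose from 944 ± 55.1 to 2739 ± 224 (log2 1.54, SE 0.09, adjusted p = 2e-09), and E2f5 (1.43) and Ccng2 (1.38) rose too.

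In KO against WT, 1 of the 36 was higher and 12 lower (median -0.16), and in KOLPS against WTLPS 5 were higher and 13 lower (median -0.15, which was 0.03 in TPM scaled to a common median). Cdc25b was 638 ± 34.1 in WT and 267 ± 9.52 in KO (log2 -1.26, SE 0.08, adjusted p = 9.8e-09), and Cdkn3, a CDK phosphatase, and E2f7, an E2F repressor, were lower by log2 values of -1.13 and -0.98. Cables1, a CDK-binding protein, was the 1 higher gene in KO (log2 0.93, SE 0.26, adjusted p = 0.0089) and was 10.1 ± 2.92 in WTLPS and 148 ± 28.2 in KOLPS (log2 3.83, SE 0.28, adjusted p = 6.4e-08). In that comparison the lowest values were those of Cdkn3 (log2 -1.42, adjusted p = 2.3e-05), E2f8 (-1.37, adjusted p = 1.4e-08) and E2f7 (-1.33, adjusted p = 6.1e-05). Wee1, the kinase that inhibits CDK1 and CDK2, averaged 64.1 ± 9.98 in WTLPS and 156 ± 24.1 in KOLPS (log2 1.29, adjusted p = 6.4e-06). Cdkn2b, the INK4 inhibitor p15, averaged 94.0 ± 20.3 and 140 ± 22.4 (log2 0.57, SE 0.18, adjusted p = 0.017).

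A list of 20 genes of S, G2 and M phase was followed as well. Of these, 17 were lower and 1 higher with LPS in WT (median log2 -0.66), 17 lower and 2 higher in KO against WT (median -0.65), 15 lower and 1 higher in KOLPS against WTLPS (median -0.96), and 16 lower and 2 higher with LPS in KO (median -0.95). Their summed TPM was 1079 to 1170 in WT, 561 to 650 in WTLPS, 790 to 796 in KO and 533 to 591 in KOLPS. Bub1, a mitotic checkpoint kinase, was 551 ± 14.8 in WT and 253 ± 20.6 in KO (log2 -1.12, SE 0.13, adjusted p = 8.7e-06). Pcna and Mcm2, of the replication machinery, were the 2 that were higher in KO, by log2 0.27 and 0.58, and in log2(TPM + 1) 1 of the 20 was higher and 17 were lower. These values stand beside the lower G1 cyclins and inhibitors in KO, and their part in them was not tested.

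For the 3 members with the widest range of group means (Ccnd2, Ccnd1 and Cdkn1a), the genes most like them over the 12 libraries were sought among 9338 genes by Pearson correlation of log2 normalized counts, as a description, since all libraries share the design. For Ccnd2 these were Nfkb1 (r = 0.9988), Tor3a (0.9985) and Il15ra (0.9985). Nfkb1, for example, averaged 4486 normalized counts in WT and 14194 in WTLPS. For Ccnd1 they were Stoml1 (0.9918), Adam8 (0.9887) and Flrt3 (0.9887), and Flrt3 averaged 673 in WT, 56.5 in KO, 1354 in WTLPS and 209 in KOLPS. For Cdkn1a they were Ube2l6 (0.999), Cish (0.9986) and Ogfr (0.9982), and Cish, which encodes a feedback inhibitor of cytokine signalling, averaged 446 in WT, 343 in KO, 1699 in WTLPS and 1481 in KOLPS.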

How the data were processed

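The authors trimmed 100-base paired reads, aligned them to mm10 with STAR (version 2.5.1 per the labels, while the study's reporting summary names another version) and estimated gene abundance with RSEM. The labels name rRNA depletion and the study's methods a poly(A), strand-specific kit; the strand setting of RSEM is not given in the sources used here. The deposited RNA-seq tables hold, per gene, an expected count (estimated, not whole), TPM, FPKM (not used here) and transcript lengths. Replicates are not pooled in these RNA-seq tables.

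Expected counts were rounded, filtered with edgeR's default rule, scaled by TMM and fitted over all 12 libraries with edgeR 4.0.16 (glmQLFit, glmQLFTest, R 4.3.3), with contrasts for 4 comparisons and the interaction, and Benjamini-Hochberg adjustment over 14008 genes. Alternatives were DESeq2 1.42.0, limma 3.58.1 on log2(TPM + 1) or log2(TPM + 0.1) (TPM of 1 or more in no fewer than 3 libraries), other filters, the compared groups alone, leave-one-out, and median-scaled TPM, the last chosen after seeing the data. The named genes are all members, Ctcf, at most 3 highest and 3 lowest calls of the G1 to S list, and the 3 genes most like the 3 most variable members; others were chosen after their values were seen. Members and lists were chosen with earlier results of these data known. The authors' fold cutoffs are an alternative, with that for LPS in WT cells also applied to KOLPS against KO. P-values measure the spread between these libraries, estimated over the 4 groups together.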

Additional observations from a re-analysis of the deposited data

Results flagged for a closer look

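The response to LPS differed between KO and WT cells, by the interaction term in the quasi-likelihood test of edgeR, for 3 of the 10 genes. For Ccnd1 the response was 1.39-fold in WT and 2.47-fold in KO, a log2 difference of 0.83 (SE 0.15, adjusted p = 0.002). For Ccne1 the log2 response was 0.68 in WT and 1.26 in KO, a difference of 0.57 (SE 0.15, adjusted p = 0.019). For Cdkn2d it was -0.51 in WT and 0.06 in KO, a difference of 0.57 (SE 0.14, adjusted p = 0.014). In normalized counts the resting KO level was in each case the lowest of the 4 group means. In TPM this did not hold for Cdkn2d, which averaged 12.8 in KO, 11.3 in WTLPS and 9.7 in KOLPS.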

How the results depend on the processing

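Across the 10 genes and 5 contrasts, 337 leave-one-out values kept their direction and their side of the threshold, and 20 turned sign. With the direction kept, 1 gained and 2 lost the call. Under other settings 400 kept both and 25 turned sign, and with the direction kept 3 gained and 12 lost the call. Values that turned sign are not counted among the calls gained or lost. In log2(TPM + 1) and log2(TPM + 0.1), Ccnd3 in WTLPS against WT and Cdkn2d in KOLPS against KO turned sign and gained a call. Ccnd1 in WTLPS against WT turned sign and lost its call there. With fold cutoffs, 4, 2 and 5 members passed in WTLPS against WT, KOLPS against WTLPS and KOLPS against KO, and 3166, 3503 and 3932 genes. For the interaction, limma on log2(TPM + 1) and log2(TPM + 0.1) called 1552 and 1363 genes against 2443, and leaving out 1 library gave 1662 to 3769, the highest without KOLPS replicate 2. Values that turned sign in log2(TPM + 1) and log2(TPM + 0.1) were Ccnd1 (-0.10, -0.11) and Ccnd3 (-0.52, -0.53) in WTLPS against WT, Ccnd3 (-0.07, -0.07), Ccne1 (-0.03, -0.04) and Rb1 (-0.13, -0.14) in KOLPS against WTLPS, Cdkn2d (-0.36, -0.39) in KOLPS against KO, and the interactions of Ccnd2 (0.01, 0.03), Ccne2 (0.11, 0.01) and Cdkn2c (0.20, 0.18). In median-scaled TPM they were Rb1 in KOLPS against WTLPS (-0.06) and the interactions of Cdkn2c (0.12) and Rb1 (-0.03). The Ccne2 interaction was 0.01 with DESeq2's size factors and with no filter, and 0.00 in DESeq2 and with 10 counts in every library. Leave-one-out ranges that crossed 0 were Ccnd3 -0.08 to 0.22 (WTLPS against WT) and -0.16 to 0.12 (KOLPS against WTLPS), Ccne1 -0.02 to 0.13 and Rb1 -0.05 to 0.12 (KOLPS against WTLPS), and the interactions of Ccnd2 (-0.07 to 0.04) and Ccne2 (-0.09 to 0.15). The cause of these shifts was not tested beyond the shift of the median gene in TPM. With the replicate number as a block, 5921, 5888, 8205, 9265 and 2063 genes passed in KO against WT, KOLPS against WTLPS, WTLPS against WT, KOLPS against KO and the interaction, and no member's call changed. Deviations from the group mean correlated between -0.66 and 0.35 for same-numbered libraries, and between -0.61 and 0.67 for differently numbered ones. No pairing by number was seen, but deviations from a mean of 3 libraries cannot exclude it.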

Other observations

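Among 20 known p53 targets, chosen because Cdkn1a is one, 4 were higher and 10 lower with LPS in WT cells (median log2 -0.34), and 12 higher and 4 lower with LPS in KO cells (median 0.39). Over all genes, 30.0% were higher and 30.2% lower in WT cells, and 33.6% and 33.9% in KO cells. In log2(TPM + 1) the list gave 2 higher and 16 lower in WT cells and 5 higher and 7 lower in KO cells (median -0.07), so the balance in KO cells turned with the scale. The interaction passed for 11 with a more positive response in KO and for 1 with a more negative one (median 0.37), against 8.70% and 8.75% of all genes. In log2(TPM + 1) 10 were more positive and 0 more negative, while 1552 of 13435 genes passed, 61% of them more positive. In TPM scaled to a common median 8 were more positive and 0 more negative, while 1685 of 13261 genes passed, 49% of them more positive. Perp, a membrane protein, averaged 125 ± 12.7 normalized counts in WT, 74.0 ± 8.49 in WTLPS, 95.2 ± 12.7 in KO and 378 ± 43.1 in KOLPS, with an interaction of 2.75 (SE 0.19, adjusted p = 9e-07). Phlda3 averaged 356 ± 24.5, 130 ± 41.3, 208 ± 5.98 and 411 ± 98.8 in the same order (interaction 2.42, SE 0.27, adjusted p = 3.8e-05). Rrm2b was the 1 with a more negative response (-0.85, SE 0.22, adjusted p = 0.015).

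Of 10 known FoxO targets, chosen because Cdkn1b is one, 8 were lower in KO than in WT (median log2 -0.63), against 22.4% of all genes. In log2(TPM + 1) 8 were lower in KO against WT too, and of all genes that passed there 36% were higher. In TPM scaled to a common median 6 were lower in KO against WT. In KOLPS against WTLPS 7 were lower and 2 higher, against 23.3% and 21.4% of all genes. With LPS, 4 were higher and 3 lower in WT cells (median -0.12), against 30.0% and 30.2%. In KO cells LPS gave 7 higher and 3 lower (median 0.41), against 33.6% and 33.9%. In log2(TPM + 1) the LPS counts were 2 higher and 6 lower in WT and 2 higher and 3 lower in KO. Txnip averaged 7194 ± 19.6 in WT and 3632 ± 79.1 in KO (log2 -0.99, SE 0.07, adjusted p = 7.8e-08). Bcl6, a transcriptional repressor, averaged 806 ± 40.9 and 392 ± 22.2 (log2 -1.04, SE 0.07, adjusted p = 4.5e-08).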
